A study of Mus musculus with 16 samples.

Results

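The mRNAs of 9 genes of the DNA methylation and demethylation machinery were followed in RNA bisulfite sequencing libraries of mouse embryonic stem cells. Apart from Mbd3, of the methyl-CpG-binding domain family, these genes write, copy, oxidise or remove cytosine methylation in DNA or assist in it. The genes were Dnmt1, Uhrf1, Dnmt3a, Dnmt3b, Dnmt3l, Tet1, Tet2, Tdg and Mbd3, and they were chosen by name for their roles, with no threshold on a measured value. Of these, 8 genes had at least 1 listed RefSeq mRNA and Uhrf1 had none, which gave 11 reference transcripts of the 15330 in the libraries (13271 gene symbols). The cells were of the J1 background, and 3 libraries came from Dnmt2-/- cells and 3 from wild type cells. All were long RNA (over 200 nt) depleted of rRNA, and they are 6 of the 16 libraries of the series. Cells of both genotypes were grown on a mouse embryonic fibroblast feeder in serum with the ESGRO supplement, and the feeder was taken off by letting it attach to dishes before harvest. No label names the clones, cultures or deleted exons, so the p-values below measure only the spread between these libraries, which may be technical.

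DNA methylation is placed on unmethylated DNA by the de novo methyltransferases Dnmt3a and Dnmt3b with the inactive cofactor Dnmt3l, and it is copied after replication by Dnmt1, which Uhrf1 brings to hemimethylated sites. The Tet dioxygenases oxidise 5-methylcytosine, and the glycosylase Tdg excises the more oxidised products so that base excision repair can restore cytosine. Mouse embryonic stem cells express both arms and turn DNA methylation over continuously. Dnmt2, whose gene symbol is Trdmt1, shares the fold of the DNA methyltransferases but methylates tRNA, and the comparison asks how the transcripts of the DNA machinery stood in cells that lack it.

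The level used throughout is the scaled coverage, the mean number of reads over the cytosines of a transcript that are listed in any library, scaled between libraries with TMM factors. It is a value per base and not a read count, and a cytosine unlisted in a library was taken as 0. Summed coverage was 93517724 to 109992584 in Dnmt2-/- libraries and 37786723 to 143488903 in wild type libraries, the shallowest being wild type replicate 3, with a median of 6 to 11 reads per listed cytosine over the 6 libraries. Trdmt1 itself (NM_010067.4) had a scaled coverage of 1.30, 0.458 and 0.978 in Dnmt2-/- libraries, against 4.32, 3.47 and 2.93 in wild type libraries, so the groups did not overlap in the direction of the labels. Its log2 difference was −1.56 with an SE of 0.363 (limma, adjusted p = 0.37). The lower level lay outside the 5′ end: 161 of the 193 listed cytosines of Trdmt1 were listed in wild type libraries only, and the 32 listed in any Dnmt2-/- library lay between positions 11 and 142. Over the 7 cytosines listed in all 6 libraries, between positions 39 and 57, the log2 difference was −0.06, and with unlisted cytosines taken as 2 reads it was −0.69. Stem cell identity was checked on a list of 10 genes, all of them listed, and the summed scaled coverage of the list was 2780, 2731 and 2110 in Dnmt2-/- libraries, against 2201, 1849 and 1849 in wild type libraries. The sums overlapped between genotypes but were higher in Dnmt2-/- libraries within each replicate number. Dppa5a alone made up their largest part, so the sums mainly follow this gene. It had 1794.4, 1746.5 and 1278.8 in Dnmt2-/- libraries, against 1244.7, 950.4 and 990.9 in wild type libraries. Of the 10 references tested from that list 8 were higher in Dnmt2-/- libraries, against 55.1% of all transcripts. Among the 8, Dppa5a (log2 difference 0.59) and Nanog NM_001289828.1 (0.89) did not overlap between genotypes. Of all transcripts, 6.13% lay apart in that direction. None of the 10 passed (limma, adjusted p = 0.596 for Dppa5a and 0.446 for Nanog). The 2 lower ones were Pou5f1 NM_013633.3 (−0.24) and Sox2 (−0.09), and Zfp42 was at 0.05. Of 12 feeder fibroblast genes 9 were listed. All 9 had a lower mean log2 level in Dnmt2-/- libraries, where 55.1% of all transcripts had a higher one. None had an adjusted p under 0.05 (limma). The groups of 3 of the 9 did not overlap, where 5.98% of all transcripts lay apart in that direction. The log2 differences ran from −1.61 for Vim to −0.07 for Thy1. Their summed scaled coverage was 74.6, 70.5 and 56.9 in Dnmt2-/- libraries, against 130.2, 113.7 and 242.8 in wild type libraries. The largest part came from Vim, which encodes vimentin, with 36.1, 34.7 and 37.4 in Dnmt2-/- libraries, against 97.3, 77.7 and 179.3 in wild type libraries. The separation of the sums thus leans on this gene, and sums without Vim were not compared. Dcn, which encodes decorin, was at 0 in every library but wild type replicate 3, and Lum, Pdgfrb and Postn were unlisted. The differences in stem cell and feeder genes run along the genotype comparison for every gene described here, and their part in those results was not tested. In such bulk RNA fewer cells of a type and less RNA per cell cannot be told apart.

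Most of the 11 references were listed over a short window only. Tet2 (NM_001040400.2) had 1909 listed cytosines between positions 16 and 9121 of the mRNA, and Mbd3 (NM_013595.2) had 418 between positions 68 and 1584. The 9 others had 23 to 138 cytosines within 77 to 646 nt, and the RNA had been broken to fragments of about 250 nt per the labels. The next counts cover references matched to a gene and with a mean scaled coverage of 1 or more. For genes with a single mRNA in the RefSeq table, the median was 455 listed cytosines and 6.79% had under 100. For genes with 2 or more mRNAs the median was 89 and 52.1% had under 100. Of the genes with short windows, Dnmt3b had 9 RefSeq mRNAs, Dnmt3l 6, Dnmt1 5, and Dnmt3a and Tdg 3 each, but Tet1 had 1, while Tet2 and Mbd3, which were read along their length, had 2 each. A level given here is therefore the level of the listed window and not of the whole gene, and isoforms are kept apart.

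In mean scaled coverage over the 6 libraries the order was Tdg (30.1), Mbd3 (22.1), Tet1 (14.6), Dnmt3l NM_001284197.1 (8.42), Tet2 (7.69), Dnmt3a NM_153743.4 (6.17), Dnmt3l NM_019448.4 (4.99), Dnmt3b (4.11), Dnmt3a NM_007872.4 (1.48), Dnmt1 (1.11) and Dnmt3l NM_001284198.1 (0.655). Within a library the order was firm at only a pair of steps: Mbd3 lay above Tet1, and Dnmt3b above Dnmt3a NM_007872.4, in 6 of 6 libraries. Tdg lay above Mbd3 in 3 of 6 libraries and Dnmt3l NM_001284197.1 above Tet2 in 2 of 6, so these neighbours were not separated. Among the 10949 transcripts tested, the Tdg window stood at the 88.6th percentile of mean level, Mbd3 at the 83.9th, Tet1 at the 75.4th and Dnmt1 at the 3.09th.

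**Figure D1:**
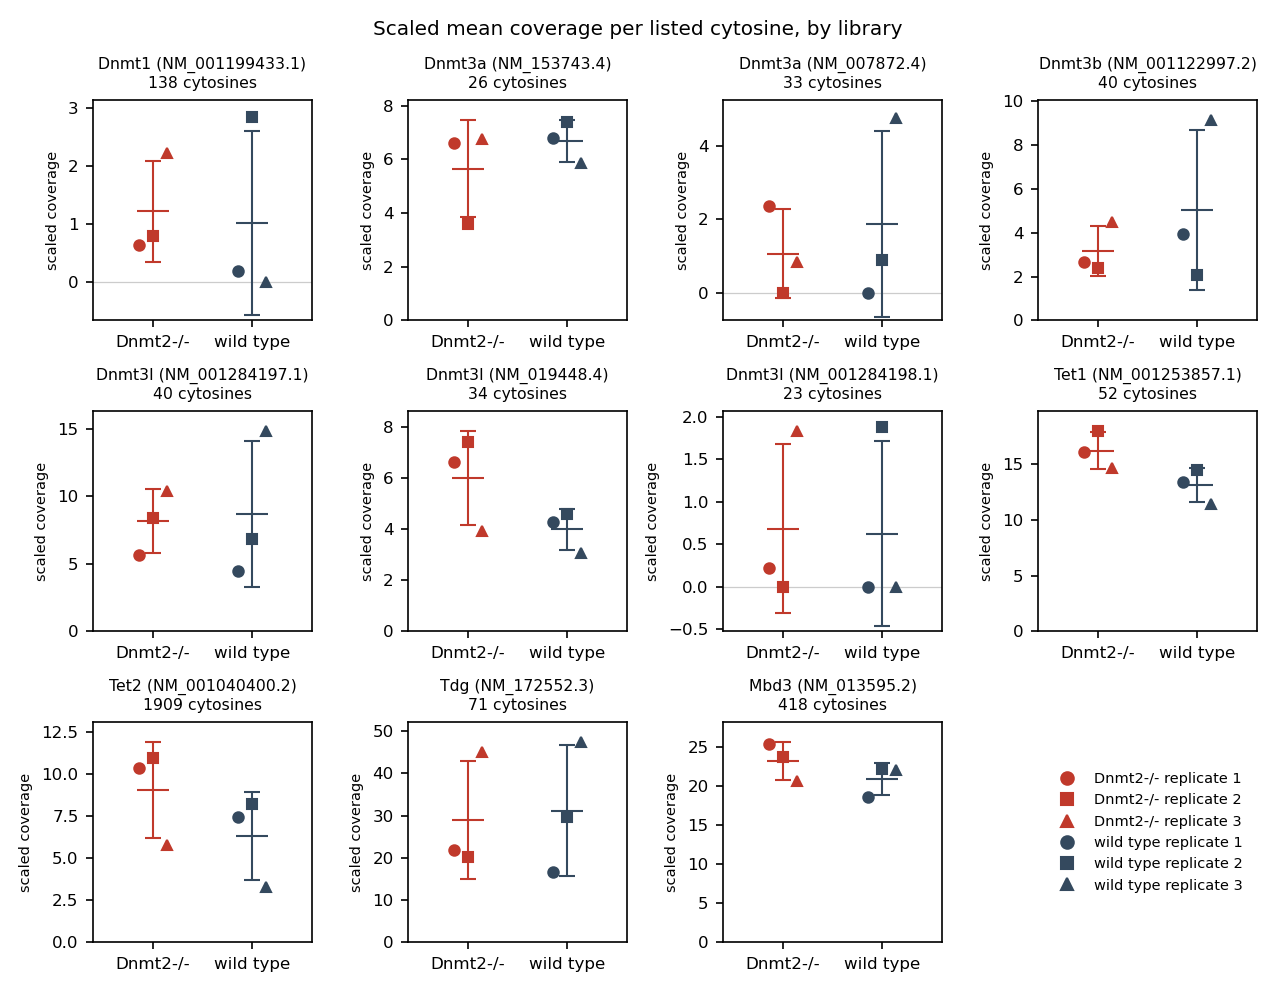
Scaled mean coverage per listed cytosine of the 11 references, one panel each, with Dnmt2-/- libraries in red and wild type libraries in dark blue; marker shape gives the replicate number, and the horizontal and vertical bars give the mean and SD of 3 libraries. Tet1 is the panel in which all 3 Dnmt2-/- libraries (14.6 to 17.9) lie above all 3 wild type libraries (11.4 to 14.5), while Tdg spans 20.1 to 45.0 in Dnmt2-/- libraries and 16.6 to 47.3 in wild type libraries.

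Between genotypes, 10 of the 11 references passed the filter of a mean scaled coverage of 1 or more, the exception being Dnmt3l NM_001284198.1. None of the 10 reached an adjusted p under 0.05 (limma with Benjamini-Hochberg adjustment over all 10949 transcripts), where the share called over all transcripts was 0%. At an unadjusted p under 0.05 (limma), 0 of the 10 were called, against 7.11% of all transcripts. Of the 10, 6 had a higher mean log2 level in Dnmt2-/- libraries and 4 a lower one, and 55.1% of all transcripts were higher. The median log2 difference of the 10 was 0.09, against 0.03 over all transcripts tested. The 95% intervals of the 10 differences ranged from −0.17 to 0.46 for Mbd3, the narrowest, to −2.70 to 2.09 for Dnmt3a NM_007872.4, so what each comparison leaves undetected differs greatly between genes.

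**Figure D2:**
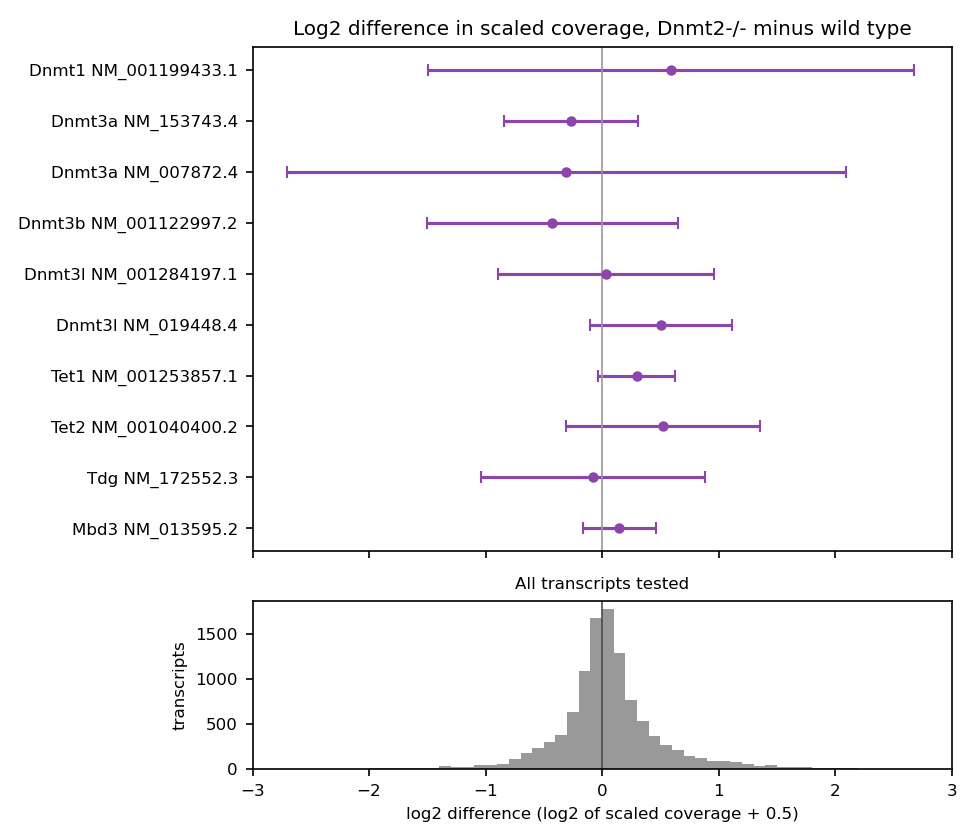
Log2 difference in scaled coverage, Dnmt2-/- minus wild type, of the 10 references tested (points) with limma 95% intervals (bars), above a histogram of the difference over the transcripts tested whose value lies on the axis shown. Every interval crosses 0, from the narrow ones of Tet1 (−0.04 to 0.63) and Mbd3 (−0.17 to 0.46) to those of Dnmt1 (−1.50 to 2.68) and Dnmt3a NM_007872.4 (−2.70 to 2.09).

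Dnmt1, the maintenance methyltransferase, was represented by a single reference, NM_001199433.1, on chromosome 9. Its 138 listed cytosines lay between positions 22 and 667. RefSeq places 3 starts for Dnmt1, and the 8 listed cytosines within the first 50 positions of the reference all fell on a cytosine at the third of them only, which lies 356 nt downstream of the second start and 7265 nt downstream of the first. The 100 bases before the third start (RefSeq, GRCm38.p6, chr9:20952624-20952723, minus strand, 5′ to 3′) are shown because they set the listed transcript apart from the other Dnmt1 mRNAs, with CpG dinucleotides in capitals.
Dnmt1 downstream start: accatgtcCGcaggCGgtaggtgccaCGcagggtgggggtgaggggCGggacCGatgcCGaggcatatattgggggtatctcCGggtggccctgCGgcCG
This stretch holds 9 CpG, and the 250 bases before the start hold 26, a number reached by 9.59% of the 32851 annotated starts (median 6).

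The Dnmt1 window was thinly read. Its scaled coverage was 0.635, 0.790 and 2.22 in Dnmt2-/- libraries, against 0.196, 2.84 and 0 in wild type libraries, and the highest coverage of any of its cytosines was 10 reads. The groups overlapped, and the highest and the lowest value were both in wild type libraries. The log2 difference was 0.59 with a 95% interval of −1.50 to 2.68 (limma, adjusted p = 0.985), and its size hung on single libraries and on the pseudocount. It was 0.08 without wild type replicate 3, 0.30 without wild type replicate 1 and −0.34 without both replicate 3 libraries, and 1.37 with a pseudocount of 0.1. Coverage of this transcript with a downstream start is not a measure of total Dnmt1 mRNA, whose other isoforms were not analysed here. For Uhrf1, the protein that reads hemimethylated CpG and recruits Dnmt1, no reference was listed in any library and no level is given.

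Dnmt3a, a de novo methyltransferase on chromosome 12, was listed as 2 isoforms, each over a short window near its 5′ end. NM_153743.4 encodes the short isoform Dnmt3a2, the form known to predominate in embryonic stem cells, and NM_007872.4 the long isoform Dnmt3a1. The Dnmt3a2 window (26 cytosines, positions 59 to 173) had a scaled coverage of 6.61, 3.58 and 6.77 in Dnmt2-/- libraries, against 6.79, 7.40 and 5.86 in wild type libraries. Only Dnmt2-/- replicate 2 lay well below the others, and the groups overlapped. The log2 difference was −0.27 (SE 0.248, 95% interval −0.84 to 0.31; limma, adjusted p = 0.972), and without Dnmt2-/- replicate 2 it was 0.0073.

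The Dnmt3a1 window (33 cytosines, positions 71 to 165) was listed at 2.37, 0 and 0.841 in Dnmt2-/- libraries, against 0, 0.884 and 4.77 in wild type libraries, with at most 5 reads on any cytosine. One library of each genotype was thus at 0 for the long isoform, and the log2 difference of −0.31 (95% interval −2.70 to 2.09; limma, adjusted p = 0.992) became 0.35 without Dnmt2-/- replicate 2. Of the summed level of both isoform windows, Dnmt3a2 made up 73.6%, 100% and 89.0% in Dnmt2-/- libraries, against 100%, 89.3% and 55.1% in wild type libraries. The short isoform was the larger in every library, and its share varied more within each genotype than between the 2 genotypes.

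Dnmt3b, the other de novo methyltransferase, lies on chromosome 2 and was listed as NM_001122997.2 over 40 cytosines between positions 1922 and 2073. Its scaled coverage was 2.66, 2.37 and 4.48 in Dnmt2-/- libraries, against 3.94, 2.07 and 9.12 in wild type libraries. Replicate 3 was the highest library of both genotypes, and the highest value of all came from wild type replicate 3, which listed 29 of the cytosines at 8 reads or fewer. The log2 difference was −0.43 (SE 0.466, 95% interval −1.50 to 0.65; limma, adjusted p = 0.975), against 0.07 without wild type replicate 3.

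Dnmt3l, the catalytically inactive partner that stimulates Dnmt3a and Dnmt3b, lies on chromosome 10 and was listed as 3 references, each over a short window. NM_001284197.1 (40 cytosines, positions 18 to 114) had a scaled coverage of 5.66, 8.38 and 10.4 in Dnmt2-/- libraries, against 4.47, 6.81 and 14.8 in wild type libraries. The genotypes overlapped, and replicate 3 was the highest library of both (log2 difference 0.03, 95% interval −0.90 to 0.96; limma, adjusted p = 0.999). Leaving out Dnmt2-/- replicate 2 or 3 or wild type replicate 1 or 2 turned its sign, to −0.33 without wild type replicate 1. NM_019448.4 (34 cytosines, positions 51 to 127) had 6.63, 7.43 and 3.92 in Dnmt2-/- libraries, against 4.30, 4.59 and 3.09 in wild type libraries. Here only Dnmt2-/- replicate 3 fell among the wild type values. The log2 difference was 0.50 (SE 0.265, 95% interval −0.11 to 1.12; limma, adjusted p = 0.823).

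NM_001284198.1, the third Dnmt3l reference, was nearly unread, at 0.222, 0 and 1.83 in Dnmt2-/- libraries and 0, 1.88 and 0 in wild type libraries, and it was not tested. Over the 3 windows together, NM_001284197.1 made up 45.2%, 53.0% and 64.4% of the summed level in Dnmt2-/- libraries, against 51.0%, 51.3% and 82.7% in wild type libraries. NM_019448.4 made up 53.0%, 47.0% and 24.3% in Dnmt2-/- libraries, against 49.0%, 34.5% and 17.3% in wild type libraries. In both genotypes replicate 3 had the highest share of the first and the lowest share of the second.

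Tet1, the first of the 5-methylcytosine dioxygenases and abundant in embryonic stem cells, lies on chromosome 10 and was listed as NM_001253857.1 over 52 cytosines between positions 4629 and 4881. Its scaled coverage was 16.0, 17.9 and 14.6 in Dnmt2-/- libraries, against 13.4, 14.5 and 11.4 in wild type libraries. Tet1 was the only one of the 10 references tested whose groups did not overlap, a pattern with Dnmt2-/- higher that 6.13% of all transcripts showed. The means were 16.2 ± 1.66 in Dnmt2-/- libraries and 13.1 ± 1.54 in wild type libraries (SD, n = 3 each). The log2 difference was 0.30 (SE 0.144, 95% interval −0.04 to 0.63; limma, unadjusted p = 0.0752, adjusted p = 0.791).

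Tet2, the dioxygenase without a DNA-binding CXXC domain of its own, was read along its whole mRNA. The first listed cytosine is position 16, and the 11 listed cytosines within the first 50 positions all fell on a cytosine of the RefSeq sequence after the start on chromosome 3. The 100 bases before that start (RefSeq, GRCm38.p6, chr3:133544391-133544490, minus strand, 5′ to 3′, CpG in capitals) are shown for the start that the coverage reaches, as for the Dnmt1 start above.
Tet2 start: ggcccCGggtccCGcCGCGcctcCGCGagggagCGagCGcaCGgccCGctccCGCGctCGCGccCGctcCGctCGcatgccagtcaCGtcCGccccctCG
They hold 20 CpG, and the 250 bases before the start hold 51, a number reached by 0.067% of annotated starts.

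The scaled coverage of Tet2 was 10.4, 11.0 and 5.79 in Dnmt2-/- libraries, against 7.46, 8.21 and 3.32 in wild type libraries. Replicate 3 was the lowest of both genotypes, and within each replicate number the Dnmt2-/- library was the higher one. The log2 differences within replicates 1, 2 and 3 were 0.45, 0.40 and 0.72. The log2 difference of the means was 0.52 (SE 0.359, 95% interval −0.31 to 1.36; limma, adjusted p = 0.913), and it was 0.14 without wild type replicate 3, a library that listed 515 of the 1909 cytosines where the others listed 1347 to 1739.

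Along the Tet2 mRNA the mean of Dnmt2-/- libraries was above that of wild type libraries in 9 of 9 bins of 1000 nt with at least 151 listed cytosines each. Coverage peaked in both genotypes between positions 6001 and 7000, at 15.6 in Dnmt2-/- libraries and 11.6 in wild type libraries. Within replicate 1 the Dnmt2-/- library was higher in 8 of 9 bins, and within replicates 2 and 3 in all 9. The offset was thus spread over the transcript, and none of the 9 bins separated the 3 libraries of one genotype from the 3 of the other. A last bin from position 9001, with only 11 listed cytosines, did separate them, with Dnmt2-/- higher and wild type replicate 3 at 0. In the 9 bins wild type replicate 3 listed 15.4% to 44.3% of the cytosines, against 56.9% to 83.5% in Dnmt2-/- replicate 3. Unlisted cytosines count as 0 in these values.

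Mbd3 ran differently along its length. This scaffold of the nucleosome remodelling and deacetylase complex NuRD belongs to the methyl-CpG-binding domain family, though the mammalian protein has little preference for methylated DNA, and its gene lies on chromosome 10. Its scaled coverage was 25.4, 23.7 and 20.7 in Dnmt2-/- libraries, against 18.6, 22.2 and 22.1 in wild type libraries, and the groups overlapped. The means were 23.3 ± 2.39 in Dnmt2-/- libraries and 20.9 ± 2.04 in wild type libraries (SD, n = 3 each), a log2 difference of 0.15 (SE 0.135, 95% interval −0.17 to 0.46; limma, adjusted p = 0.970). It was 0.07 without wild type replicate 1, 0.08 without Dnmt2-/- replicate 1 and 0.37 with unlisted cytosines as 2 reads. Of 8 bins of 200 nt, Dnmt2-/- libraries were higher in 8 within replicate 1, in 4 within replicate 2 and in 1 within replicate 3. Coverage was highest between positions 801 and 1000, at 49.0 in Dnmt2-/- libraries and 42.1 in wild type libraries.

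**Figure D3:**
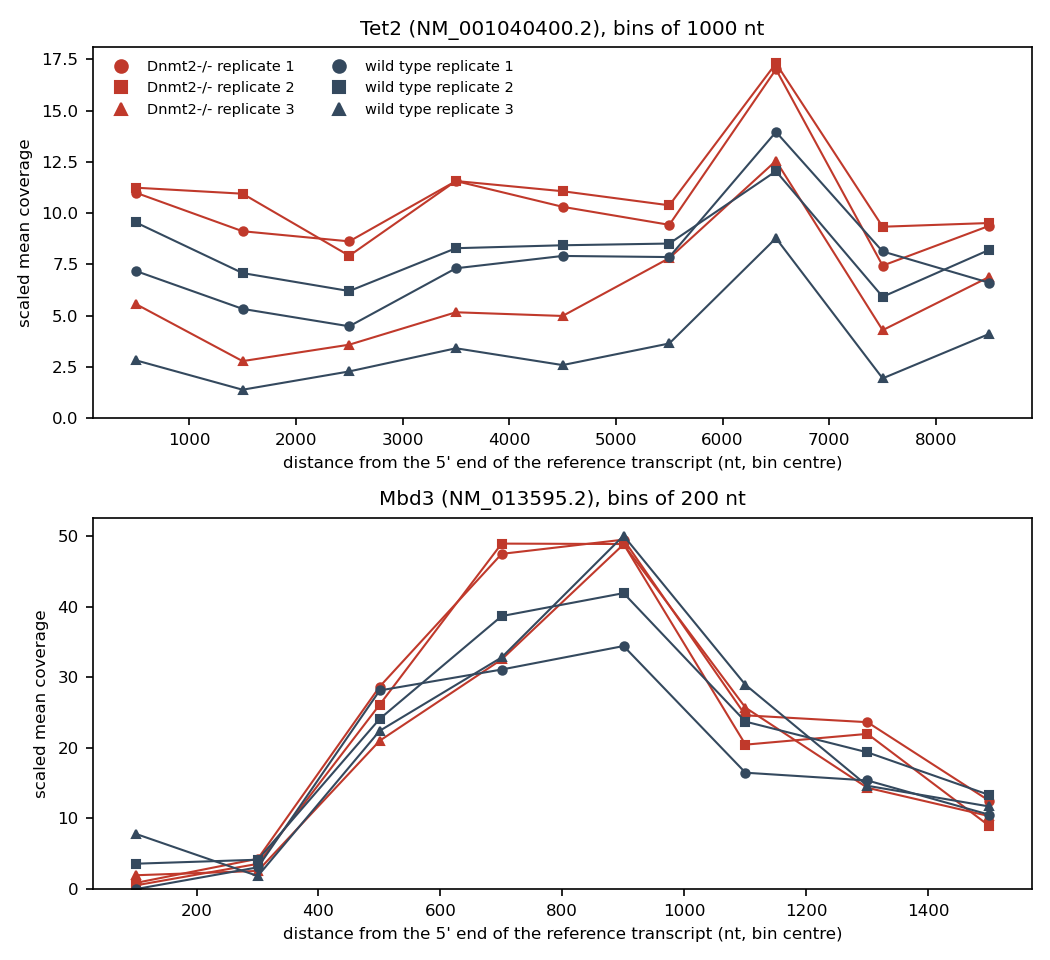
Scaled mean coverage along the reference transcripts of Tet2 (bins of 1000 nt) and Mbd3 (bins of 200 nt) against distance from the 5′ end in nt, one line per library, Dnmt2-/- in red and wild type in dark blue. In Tet2 each Dnmt2-/- line runs above the wild type line of the same replicate number in 8 or 9 of 9 bins and both replicate 3 lines run low; in Mbd3 the lines cross.

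Tdg, the glycosylase that removes thymine from G:T mismatches and the oxidised bases 5-formylcytosine and 5-carboxylcytosine, lies on chromosome 10 and was listed as NM_172552.3 over 71 cytosines between positions 60 and 285. Its scaled coverage was 21.7, 20.1 and 45.0 in Dnmt2-/- libraries, against 16.6, 29.6 and 47.3 in wild type libraries. The replicate 3 libraries of both genotypes stood above the rest. The log2 difference was −0.08 (SE 0.415, 95% interval −1.04 to 0.88; limma, adjusted p = 0.995), and its sign turned when single libraries were left out, to 0.07 without Dnmt2-/- replicate 1, 0.13 without Dnmt2-/- replicate 2 and 0.27 without wild type replicate 3.

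Tdg and Tet2 varied in opposite ways between replicates. Replicate 3 of Tdg had 2.15 times the mean of replicates 1 and 2 in Dnmt2-/- libraries and 2.05 times in wild type libraries. Of all transcripts tested, 1.56% had a ratio of at least 2 in both genotypes. For Tet2 the ratio was 0.541 in Dnmt2-/- libraries and 0.423 in wild type libraries, and 7.47% of transcripts had a ratio of at most 0.6 in both. Tet1 stood between them, with ratios of 0.861 in Dnmt2-/- libraries and 0.821 in wild type libraries.

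Whether the replicate numbers of the titles pair the libraries is not established. Set within replicate numbers, the Dnmt2-/- library was the higher one in all 3 pairs for Tet1, Tet2 and Dnmt3l NM_019448.4. These are 3 of the 10 references tested, against 16.4% of all transcripts. The log2 differences within replicates 1, 2 and 3 were 0.25, 0.30 and 0.34 for Tet1 and 0.57, 0.64 and 0.30 for Dnmt3l NM_019448.4. In a fit with the replicate number as a block, these 3 had unadjusted p-values of 0.0476 (Tet1), 0.0108 (Tet2) and 0.0247 (Dnmt3l NM_019448.4) by limma, where 10.8% of all transcripts had one under 0.05. None passed after adjustment (limma, adjusted p = 0.453, 0.254 and 0.354), and none of the 10 was lower in Dnmt2-/- libraries in all 3 pairs.

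Bisulfite leaves 5-methylcytosine as cytosine, so the share of reads that still carry a cytosine, the non-conversion, bounds the RNA methylation of these mRNAs. A total of 249 cytosines of the 9 genes had at least 10 reads in all 6 libraries, of which 149 were in Mbd3, 48 in Tdg, 37 in Tet2 and 15 in Tet1. The windows of Dnmt1, Dnmt3a, Dnmt3b and Dnmt3l had none. Pooled non-conversion over the 249 was 2.03%, 2.24% and 1.63% in Dnmt2-/- libraries, against 1.65%, 1.52% and 1.89% in wild type libraries. The values overlapped, at means of 1.97% ± 0.309 in Dnmt2-/- libraries and 1.69% ± 0.190 in wild type libraries (SD, n = 3 each; exact permutation test, two-sided, p = 0.3). The difference of 0.280 percentage points became 0.143 without Dnmt2-/- replicate 2 and 0.447 without Dnmt2-/- replicate 3. All 741725 cytosines with the same depth had 1.85%, 1.85% and 1.47% in Dnmt2-/- libraries, against 1.66%, 1.49% and 1.59% in wild type libraries. Their means were 1.72% ± 0.219 in Dnmt2-/- libraries and 1.58% ± 0.0875 in wild type libraries, so the libraries differed in conversion over all transcripts too.

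By gene, Mbd3 had 1.88%, 2.00% and 1.69% in Dnmt2-/- libraries, against 1.61%, 1.50% and 1.58% in wild type libraries. These values did not overlap and gave the smallest p that 3 against 3 libraries allow (exact permutation test, two-sided, p = 0.1). The share of other transcripts with such a separation was not counted. Tdg had 3.16%, 2.80% and 1.90% in Dnmt2-/- libraries, against 1.49%, 1.79% and 2.57% in wild type libraries (exact permutation test, two-sided, p = 0.2). Tet1 averaged 2.02% ± 0.636 in Dnmt2-/- libraries and 1.82% ± 0.597 in wild type libraries, and Tet2 1.69% ± 0.862 in Dnmt2-/- libraries and 1.61% ± 0.503 in wild type libraries (SD, n = 3 each; exact permutation p = 0.6 for Tet1 and 0.9 for Tet2). In 5 such tests none could pass a threshold of 0.05.

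None of the 249 cytosines kept at least 10% unconverted reads in all 6 libraries, a count of 0 that allows a share of up to 1.20% of them by counting error alone, and 118 of all 741725 did (0.0159%). With a mean of at least 5% unconverted reads, 4 of the 249 entered the test per cytosine, and none passed (edgeR quasi-likelihood test, adjusted p = 0.999 for each), where 0% of the 8186 cytosines tested were called. Without adjustment, 0 of the 4 had a p under 0.05 (edgeR), against 2.46% of all. In Mbd3 they were position 423, at 2.47% ± 4.28 in Dnmt2-/- libraries and 7.82% ± 10.7 in wild type libraries, and position 963, at 7.12% ± 3.72 in Dnmt2-/- libraries and 6.35% ± 7.27 in wild type libraries (SD, n = 3 each). In Tdg they were position 133, at 4.30% ± 2.18 in Dnmt2-/- libraries and 6.35% ± 6.69 in wild type libraries, and position 143, at 5.59% ± 5.90 in Dnmt2-/- libraries and 7.32% ± 3.89 in wild type libraries (SD, n = 3 each). Between 10 and 63 reads in each library lay behind these values.

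The wider pathway was taken from 5 lists of 61 genes, of which 59 had a listed reference (Lig3 and Ehmt2 did not) and 64 references were tested. None of the 64 passed (limma, adjusted p under 0.05), 33 had a higher and 31 a lower mean log2 level in Dnmt2-/- libraries, and their median log2 difference was 0.0024. At an unadjusted p under 0.05 (limma) there were 2 higher and 4 lower, against 2.94% higher and 4.16% lower over all transcripts. By list, the median log2 difference was −0.04 for 7 references of methyl-CpG readers, −0.15 for 12 of oxidation and excision repair, 0.0048 for 13 of the NuRD partners of Mbd3, 0.03 for 21 of maintenance and recruitment partners, and 0.05 for 11 of methyl donor supply.

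The list of oxidation and excision repair had 3 references higher and 9 lower in Dnmt2-/- libraries, and that of methyl donor supply had 8 higher and 3 lower. The 2 members of the repair list with the highest level were Parp1, which signals DNA strand breaks, and Gadd45b, a stress-induced protein linked to active demethylation. Parp1 had 109.1, 110.2 and 96.0 in Dnmt2-/- libraries, against 108.0, 97.4 and 110.1 in wild type libraries, with a log2 difference of −0.0017. Gadd45b had 16.0, 13.2 and 19.0 in Dnmt2-/- libraries, against 19.4, 17.6 and 22.5 in wild type libraries (log2 difference −0.30; limma, adjusted p = 0.841). Tet3, the third dioxygenase, is given for its relation to Tet1 and Tet2, after its values were seen, and had 0.842, 0.629 and 1.02 in Dnmt2-/- libraries, against 0.525, 2.26 and 0.939 in wild type libraries. All of these overlapped between genotypes.

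Of the other lists, Uhrf2, the relative of Uhrf1 in the list of readers, had 13.9, 16.5 and 13.5 in Dnmt2-/- libraries, against 18.2, 16.7 and 17.9 in wild type libraries. The 2 groups were just apart, with a log2 difference of −0.26 (limma, adjusted p = 0.796), where 5.98% of all transcripts lay apart in that direction. Mbd1, a methyl-CpG-binding repressor, had 3.43, 3.11 and 4.32 in Dnmt2-/- libraries, against 3.84, 3.90 and 3.51 in wild type libraries. The histone-binding NuRD subunits Rbbp7 and Rbbp4 had log2 differences of 0.16 and 0.19. The sliding clamp Pcna, which binds Dnmt1 at replication sites, and Trim28, the corepressor that recruits silencing to imprints and retroelements, had log2 differences of −0.23 and 0.11. Gart and Shmt1, enzymes of purine synthesis and of one-carbon supply, had 0.02 and 0.11, and the groups of these 6 genes overlapped.

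The 6 references with an unadjusted p under 0.05 are named after their values were seen. Of the 64 references tested, 3 lay apart with Dnmt2-/- higher, against 6.13% of all transcripts. Another 5 lay apart with Dnmt2-/- lower, against 5.98% of all transcripts. Gadd45a, a relative of Gadd45b, had 17.7, 19.6 and 18.4 in Dnmt2-/- libraries, against 13.5, 14.8 and 12.7 in wild type libraries, a log2 difference of 0.43 without overlap (limma, adjusted p = 0.394). Polb, the gap-filling polymerase of base excision repair, had 10.2, 11.7 and 9.89 in Dnmt2-/- libraries, against 16.0, 13.6 and 15.8 in wild type libraries, a log2 difference of −0.49 without overlap (limma, adjusted p = 0.393). Cbx5, which encodes the heterochromatin protein HP1 alpha, had differences of opposite sign by isoform: NM_001110216.1 had a log2 difference of 2.08 and NM_001076789.1 one of −0.41, both without overlap. The first had at most 11 reads on a cytosine and none listed in wild type replicate 3, and with unlisted cytosines as 2 reads the differences were 0.73 and −0.18. Kdm2b NM_001003953.2, from a gene for a CpG island-binding demethylase, had −0.38 without overlap, while the other listed Kdm2b reference had 0.04. Gatad2a NM_001113346.1, from a gene for a NuRD subunit, had −1.01, and its groups overlapped. All 6 references with an unadjusted p under 0.05 had adjusted p-values of 0.393 or more (limma).

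**Figure D4:**
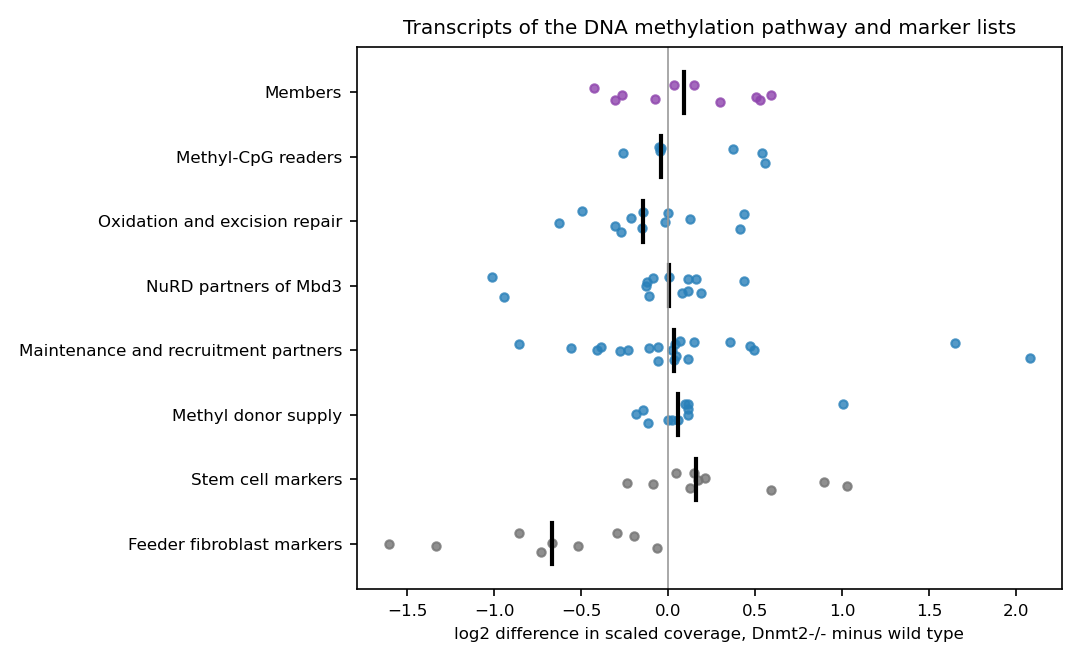
Log2 difference in scaled coverage, Dnmt2-/- minus wild type, of each reference tested (points; vertical jitter has no meaning) by list, with the list's median as a black bar. The 10 references of the DNA methylation machinery and the 5 pathway lists have medians between −0.15 and 0.09, whereas all 9 feeder fibroblast references lie below 0 with a median of −0.67.

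The mean pattern of the 8 listed genes over the 6 libraries took each gene's log2 level as a deviation from its own mean. It was −0.05, −0.07 and 0.28 in Dnmt2-/- libraries and −0.30, 0.13 and 0.01 in wild type libraries. Each gene entered with its best covered reference and equal weight. The thinly read Dnmt1 window (mean 1.11, and 0 in wild type replicate 3) thus weighs as much as any other. The pattern without Dnmt1 was not tested. Of 3733 other transcripts with a mean scaled coverage of 10 or more, those most like the pattern of the 8 genes were Klhl21 (Pearson r = 0.936), Kif20a (0.926), Prdx5 (0.919), Lima1 (0.893) and Hypk (0.890). Klhl21 had 10.3, 9.33 and 15.4 in Dnmt2-/- libraries, against 7.74, 10.5 and 11.0 in wild type libraries. These correlations are descriptions over 6 libraries that share depth and scaling with the 8 genes.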

How the data were processed

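Deposited tables list, per the file headers, a reference, a position, a read count (coverage) and the unconverted fraction for each cytosine. The authors used BSMAP and build mm9 per the submitters' processing notes; the sources used here give neither the version nor how reads shared between isoforms were placed. No listed coverage was below 3. The fraction deposited by the authors, times coverage, was within 0.01 of a whole number everywhere, so unconverted read counts were recovered. Of 15330 references, 15235 were matched to symbols through a RefSeq gene table (GRCm38.p6, names, chromosomes and promoter sequences only), 11981 with the same version.

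The genes and lists were chosen with earlier results of these data known. Mean coverage per cytosine (listed in any library; unlisted as 0) was scaled with TMM (edgeR 4.0.16, R 4.3.3), filtered at a mean of 1, put on a log2 scale after adding 0.5, which shrinks the differences of thinly read transcripts, and fitted in limma 3.58.1 with a mean-variance trend. Adjusted p under 0.05 (Benjamini-Hochberg, 10949 transcripts) was the threshold. Non-conversion was tested with edgeR's quasi-likelihood test on unconverted and converted counts, a term per library and genotype by state, at 10 or more reads in every library and a mean of 5% or more. Both were tested on simulated data. There the coverage fit recovered 103 of 200 better covered transcripts changed by a log2 of 1, with 8 false calls. It recovered 187 of 200 changed by 2, also with 8 false calls. The simulated libraries varied independently of each other, whereas same-numbered libraries here deviated together. These shares therefore need not hold for these data. Smaller changes and changes in thinly read transcripts were not simulated. The non-conversion test recovered 83 of 100 falls of 5 in log2 odds. Those falls started from a non-conversion far above that of the tested cytosines of the 9 genes. They therefore do not give the sensitivity at those cytosines. Intervals are 95%. Named beside the 9 genes were the targeted gene and, per pathway list, the 2 references tested with the highest mean level; Tet3 and the 6 references with an unadjusted p under 0.05 were added after their values were seen.

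Replicate numbers come from the sample titles. Same-numbered libraries of both genotypes deviated together (correlations 0.26, 0.14 and 0.55 for replicates 1, 2 and 3 over 5916 transcripts). Deviations were taken from each genotype's own mean, so replicate 3 standing apart in both would by itself raise the values of replicates 1 and 2. Differently numbered libraries were not compared, so pairing is not established. The numbers were still taken to pair the libraries, and a fit with the block was an alternative. Others changed scaling, pseudocount, filter, unlisted cytosines and libraries. The small and undepleted RNA libraries were not used here.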

Additional observations from a re-analysis of the deposited data

How the results depend on the processing

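None of the 10 references passed the threshold under any alternative run, and neither did a transcript of the pathway lists or a cytosine of the 9 genes. The replicate block changed no call: it gave 0 transcripts past the threshold among all and 0 among the members. The pooled non-conversion difference stayed at 0.280 points (exact sign-flip test over 3 pairs, p = 0.5). The smallest p that this sign-flip test allows is 0.25, so it could not have changed a call. Without single libraries the pooled difference was 0.143 to 0.447. Over all transcripts the number past the threshold was 0, against 1 with cytosines listed in every library, 0 to 1 when single libraries were left out (1 without Dnmt2-/- replicate 1) and 3 with unlisted cytosines as 2 reads, an alternative that, like leaving out both replicate 3 libraries, was chosen after seeing the data.

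Log2 differences that changed sign were as follows. With cytosines listed in every library Tdg was 0.036 and Parp1 0.11. With unlisted cytosines as 2 reads Dnmt1 was −0.18, Tdg 0.16, Parp1 0.24 and Pcna 0.0099. Without both replicate 3 libraries Dnmt1 was −0.34 and Parp1 0.083. Leaving out single libraries gave Dnmt3a NM_007872.4 a range of −1.13 to 0.35, Dnmt3a NM_153743.4 −0.42 to 0.0073, Dnmt3b −0.87 to 0.070, Dnmt3l NM_001284197.1 −0.33 to 0.48, Tdg −0.46 to 0.27, Gart −0.16 to 0.16, Shmt1 −0.13 to 0.37, Parp1 −0.061 to 0.050, Rbbp7 −0.0038 to 0.32 and Mbd1 −0.18 to 0.036. The cause was not tested. Tet1, Tet2, Mbd3 and Dnmt3l NM_019448.4 kept their direction in every alternative, with ranges of 0.20 to 0.44 (Tet1; 0.20 without wild type replicate 3), 0.14 to 0.79 (Tet2), 0.07 to 0.37 (Mbd3) and 0.21 to 0.75 (Dnmt3l NM_019448.4). A minimum of 20 reads left no cytosine of the 9 genes to test singly. Depth limits the windows of Dnmt1, Dnmt3a NM_007872.4 and Dnmt3l NM_001284198.1, with at most 10 reads on a cytosine.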
